A study of Homo sapiens with 12 samples.

Results

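The genes described here are 10 factors through which myeloma cells act on bone and find their way to the marrow: DKK1, FRZB, CCL3, CCL3L1, CCL4, CCR1, CXCR4, TNFSF11, TNFRSF11B and HGF. They were chosen by symbol, as 10 of the 43735 entries of the deposited count table. RNA was sequenced from 12 cultures of the human multiple myeloma (MM) lines MM1S and MM1R, with 3 cultures in each of 4 groups. MM1S is sensitive and MM1R is resistant to glucocorticoids (GC), and both lines go back to the same patient. Cells of each line were left untreated (UT) or received 1 µM withaferin A (WA), a withanolide of the plant Withania somnifera, for 3 h. The labels name no vehicle for the untreated cultures. MM1S was used at passages 16, 22 and 23 and MM1R at passages 4, 6 and 7, and each passage gave 1 untreated and 1 WA culture. The lines shared no passage, so line and passage cannot be told apart. A single line of each kind was studied, without the marrow stroma, osteoclasts or osteoblasts on which these factors act.

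MM erodes bone because the balance between osteoclasts, which resorb bone, and osteoblasts, which build it, is lost. DKK1 and FRZB are secreted antagonists of Wnt signalling, the pathway that drives osteoblasts to mature. CCL3 and CCL4 (MIP-1 alpha and beta) are chemokines that attract and stimulate osteoclast precursors, in part through the receptor CCR1, and CCL3L1 is a near-identical copy of CCL3. TNFSF11 encodes RANKL, the main differentiation signal for osteoclasts, and TNFRSF11B encodes osteoprotegerin, the decoy receptor that captures it. CXCR4 is the receptor for CXCL12, the stromal chemokine that holds plasma cells in the marrow, and HGF is the ligand of the receptor MET.

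Total counts per library lay between 17625110 and 19368343, with a median of 18555625. All 10 plasma cell and myeloma markers were found in the cells, with a summed level of 10343 to 19222 CPM (reads per gene scaled to an equal library size, after TMM normalisation) per library, and it was higher on average in MM1R (18604 CPM untreated) than in MM1S (12199 CPM). The 3 B cell markers summed to at most 0.213 CPM and the 4 osteoblast markers to at most 0.364 CPM. Osteoclast markers had a higher mean sum in MM1R (16.7 CPM untreated and 16.4 with WA) than in MM1S (6.66 and 7.41 CPM), and so had T cell markers (9.91 and 8.57 against 6.03 and 6.14 CPM). Monocyte markers had mean sums of 20.4 and 18.8 CPM in MM1R and 26.1 and 23.6 CPM in MM1S. Endothelial markers were lower with WA, at 16.5 against 20.6 CPM in MM1S and 16.9 against 20.6 CPM in MM1R. Red cell markers summed to 3.41 to 9.60 CPM per library. Most of the T cell, monocyte, endothelial and red cell sums came from 1 gene each. These were CD3E (3.26 to 11.6 CPM per library), CD68 (17.2 to 32.5), PECAM1 (10.1 to 24.7) and HBB (3.36 to 9.5). Of the other markers of these lists, none had over 13 reads in a library. Osteoclast sums came from ACP5 (2 to 140 reads), CTSK (79 to 203) and OCSTAMP (16 to 62), with at most 1 CALCR read per library. Stromal markers were low and moved with WA, from a mean sum of 2.92 to 6.68 CPM in MM1S and from 4.14 to 12.7 CPM in MM1R. Of these, COL1A1 held 9 to 294 reads per library and PDGFRB 27 to 57, while COL1A2 and LUM had no read. The part of these movements in the results was not tested. The MM1S libraries of passage 16 stood apart from those of passages 22 and 23. Their correlations of log2 CPM were 0.979 to 0.984, against 0.990 to 0.993 between passages 22 and 23. Results in MM1S are therefore also given without passage 16. In MM1R, passages 4 and 7 correlated at 0.983 untreated and 0.985 with WA, and the other pairs of passages at 0.987 to 0.991. No MM1R passage was left out in both treatments. Nothing in the labels says more about how separate the cultures of a group were than their passage numbers, so p-values measure the spread between these cultures.

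Of the 10 members, 7 had at least 1 read in the entry with the plain symbol. The 5 with enough reads to be tested were DKK1, CCL3L1, CCR1, CXCR4 and HGF. The plain entries of CCL3, CCL4 and TNFSF11 had no read in any of the 12 libraries. For CCL3 and CCL4, reads stood in entries with a number after the symbol, described below. Over the 12 libraries these held 70 (CCL3_1), 409 (CCL3_2) and 6 (CCL4_1) reads. FRZB and TNFRSF11B had reads but too few for a test. Per kilobase of transcript, CCR1 had the highest level in untreated cells, at 159 ± 6.66 CPM per kb in MM1S and 178 ± 4.60 in MM1R (SD, n = 3). CCL3L1 and CXCR4 came next, at 24.1 ± 8.42 and 24.8 ± 0.71 CPM per kb in MM1S, which do not differ beyond their spread. In MM1R the same pair lay apart, at 71.8 ± 24.7 CPM per kb for CCL3L1 and 16.0 ± 3.34 for CXCR4. DKK1 followed at 4.13 ± 0.25 CPM per kb in MM1S and 2.92 ± 1.18 in MM1R. HGF was lowest among the tested members, at 0.117 ± 0.038 and 0.225 ± 0.057 CPM per kb.

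**Figure D1:**
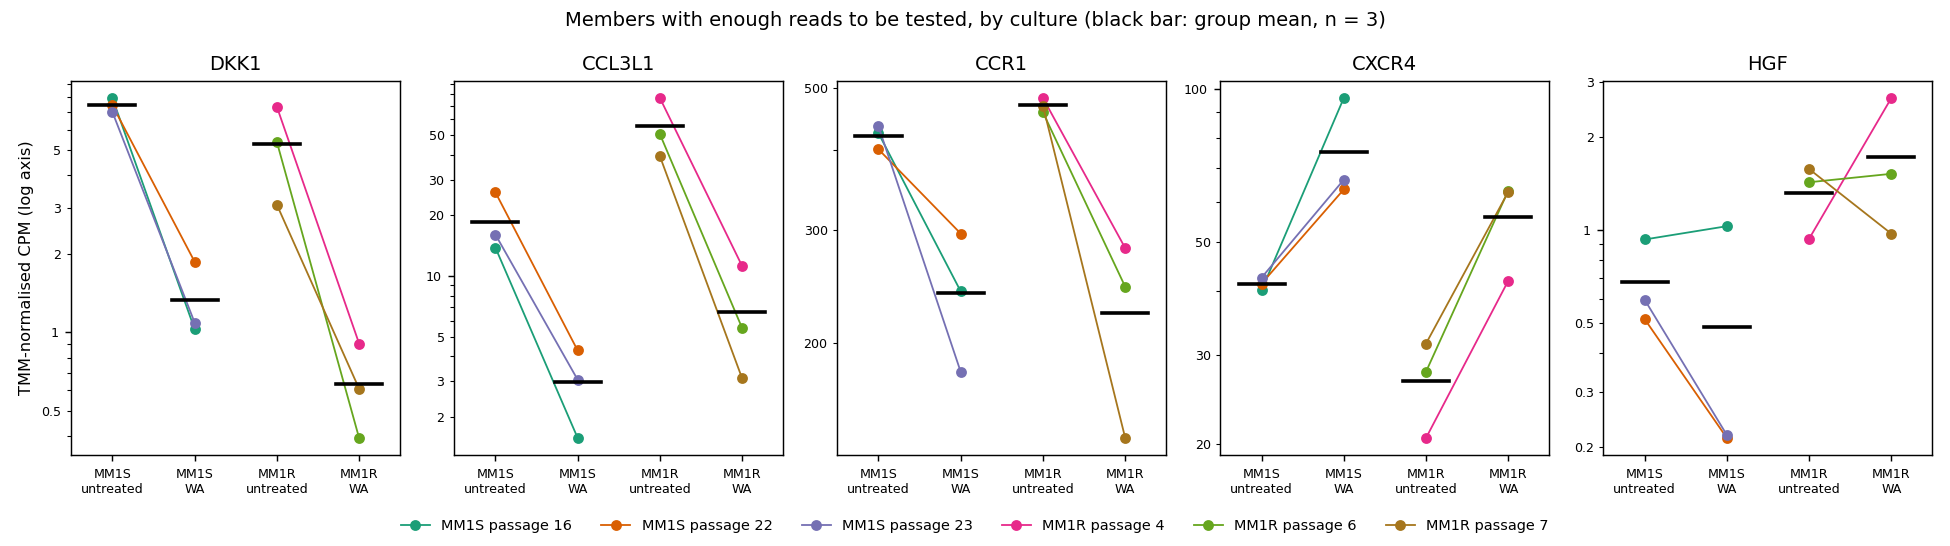
Level of each tested member in every culture, as CPM after TMM normalisation on a log axis with its own range for each gene. Lines join the untreated and the WA culture of 1 passage and black bars are group means (n = 3); DKK1, CCL3L1 and CCR1 go down and CXCR4 goes up in all 6 pairs, while HGF goes both ways.

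WA moved 4 of the 5 tested members in each line. In MM1R, DKK1, CCL3L1 and CCR1 fell and CXCR4 rose, where 14.0% of all 14085 genes tested were called (7.55% higher and 6.46% lower). In MM1S the same 4 members moved in the same directions, where 10.5% of genes were called (6.25% higher and 4.23% lower). A gene was called for WA at an adjusted p under 0.05 in the quasi-likelihood test of edgeR, adjusted by the Benjamini-Hochberg method over all genes tested in 1 fit of the 12 libraries, and p-values named as edgeR adjusted p below come from this fit. With passage as a block the counts over all genes went from 1973 to 4094 in MM1R and from 1476 to 3399 in MM1S, and the 4 members remained called in both lines. As shares of all genes, 14.7% were then called higher and 14.4% lower in MM1R, and 12.5% higher and 11.7% lower in MM1S. The median log2 fold change over all genes was 0.01 in MM1R and 0.02 in MM1S.

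DKK1, the Wnt antagonist, lay at chr10:54074041-54077802 on the plus strand of GRCh37, in 4 exons. Untreated MM1S cultures held 153, 144 and 141 DKK1 reads at passages 16, 22 and 23, and the WA cultures held 19, 35 and 20. Untreated MM1R cultures held 141, 98 and 53 reads at passages 4, 6 and 7, and the WA cultures held 17, 7 and 10. Every WA culture lay below every untreated culture of either line. How many of all genes separate in this way was not counted, here or for the members below. The mean level fell from 7.46 ± 0.46 to 1.33 ± 0.47 CPM in MM1S (SD, n = 3) and from 5.27 ± 2.13 to 0.636 ± 0.258 CPM in MM1R. This is a log2 fold change of -2.48 ± 0.34 (SE) in MM1S, or 5.58-fold lower (edgeR adjusted p = 0.00046), and of -3.03 ± 0.38 in MM1R, or 8.18-fold lower (edgeR adjusted p = 0.0002). DKK1 kept its call in all 12 fits that left out 1 library, in both lines. The 250 bases before the DKK1 start site, from RefSeq on GRCh38.p14 (chr10:52314031-52314280, plus strand), are shown because DKK1 and CCL3L1 fell furthest among the members; capitals mark the letters TATAAA, searched on both strands.
DKK1 promoter: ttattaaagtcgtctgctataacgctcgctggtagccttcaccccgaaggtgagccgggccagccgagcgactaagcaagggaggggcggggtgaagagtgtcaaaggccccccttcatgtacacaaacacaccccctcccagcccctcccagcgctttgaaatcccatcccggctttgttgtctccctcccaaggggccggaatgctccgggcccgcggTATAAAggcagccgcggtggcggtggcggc
The match in DKK1 lies at positions -30 to -25 from the start site. Among all 35114 RefSeq promoter windows of this length, 10.7% hold these letters.

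CCL3L1 fell in both lines. Untreated MM1S held 267, 504 and 323 CCL3L1 reads at passages 16, 22 and 23 against 29, 80 and 56 with WA. Untreated MM1R held 1469, 922 and 674 reads at passages 4, 6 and 7 against 210, 98 and 51 with WA. Untreated and WA cultures did not overlap within either line. Mean levels were 18.6 ± 6.50 and 2.97 ± 1.35 CPM in MM1S and 55.5 ± 19.1 and 6.61 ± 4.16 CPM in MM1R (SD, n = 3). The log2 fold change was -2.65 ± 0.45 in MM1S (edgeR adjusted p = 0.002) and -3.06 ± 0.42 in MM1R (edgeR adjusted p = 0.00044). Within pairs of 1 passage the log2 change ranged from -2.79 to -2.22 in MM1S and from -3.46 to -2.72 in MM1R.

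What the table calls CCL3L1 cannot be separated from CCL3L3 by most single reads. The table lists CCL3 and CCL4 several times: a plain entry for each, and entries with a number after the symbol. The plain CCL3 entry had 0 reads, while CCL3_1 had 70 and CCL3_2 had 409 reads over the 12 libraries. CCL3L1 held 4683 reads, or 90.63% of the reads of this family. Of the 50-base windows of the CCL3L1 transcript, the length of 1 read, 93.1% are also found in CCL3L3 and 6.2% in CCL3 on GRCh37. The study describes paired-end reads of this length, and how far both reads of a pair together separate these genes was not tested. The CCL3 transcript shares 9.8% of its windows with any other gene of the family, and the CCL4 transcript 22.7%. The plain CCL3L3 entry had 0 reads as well, and CCL3L3_2 had 5. How the counting treated reads that match several entries is not given in the sources used here. Reads under the same symbol stood in numbered entries, so the 0 of the plain CCL3 and CCL4 entries was not taken as the level of these genes.

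Such counts of 0 went beyond these chemokines. Among the 2363 symbols that have both a plain and a numbered entry, 67.4% had no read in the plain entry, against 31.5% of the 36630 symbols with no numbered entry. TNF, LTA and LTB, osteoclast-stimulating cytokines with 6 or 7 numbered entries each, had 0 reads in their plain entries, and LRP6, a Wnt co-receptor with 1 numbered entry, had 4. Unlike CCL3, most of these had next to no reads in numbered entries either, with 0 for TNF, 1 for LTB and 0 for LRP6. LTA had 156 there. Of the 19 genes of the pathway lists below that have numbered entries, 17 had at most 4 reads in the plain entry. Most of these had no read in their numbered entries either. The cause was not tested.

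CCL3_2 fell in both lines as well. CCL3_2 held 15, 85 and 46 reads in untreated MM1S and 3, 15 and 13 with WA, at passages 16, 22 and 23. In MM1R it held 73, 70 and 49 reads untreated and 20, 12 and 8 with WA, at passages 4, 6 and 7. Its log2 fold change was -2.14 ± 0.58 in MM1S (edgeR adjusted p = 0.032) and -2.21 ± 0.56 in MM1R (edgeR adjusted p = 0.018). With all CCL3 and CCL3L entries summed, the level went from 21.4 ± 8.51 to 3.67 ± 1.72 CPM in MM1S and from 59.6 ± 19.8 to 7.57 ± 4.66 CPM in MM1R. The summed family fell by 2.54 in MM1S (edgeR adjusted p = 0.0029) and by 2.97 in MM1R (edgeR adjusted p = 0.00065) on the log2 scale.

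The CCL4 family gave no call. CCL4L1 held 599 reads, 97.08% of the family's. It held 29, 125 and 37 reads in untreated MM1S and 22, 50 and 43 with WA. In MM1R it held 69, 27 and 15 reads untreated and 111, 43 and 28 with WA, a higher level in all 3 pairs. The fitted log2 fold change was -0.66 ± 0.62 in MM1S (edgeR adjusted p = 0.58) and 0.75 ± 0.63 in MM1R (edgeR adjusted p = 0.49). The difference between the lines in this effect was 1.41, with a 95% interval from -0.49 to 3.31 (edgeR unadjusted p = 0.13). On chromosome 17, CCL3 and CCL4 lie at chr17:34415602-34417515 on the minus strand and chr17:34431220-34433014 on the plus strand of GRCh37.

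**Figure D2:**
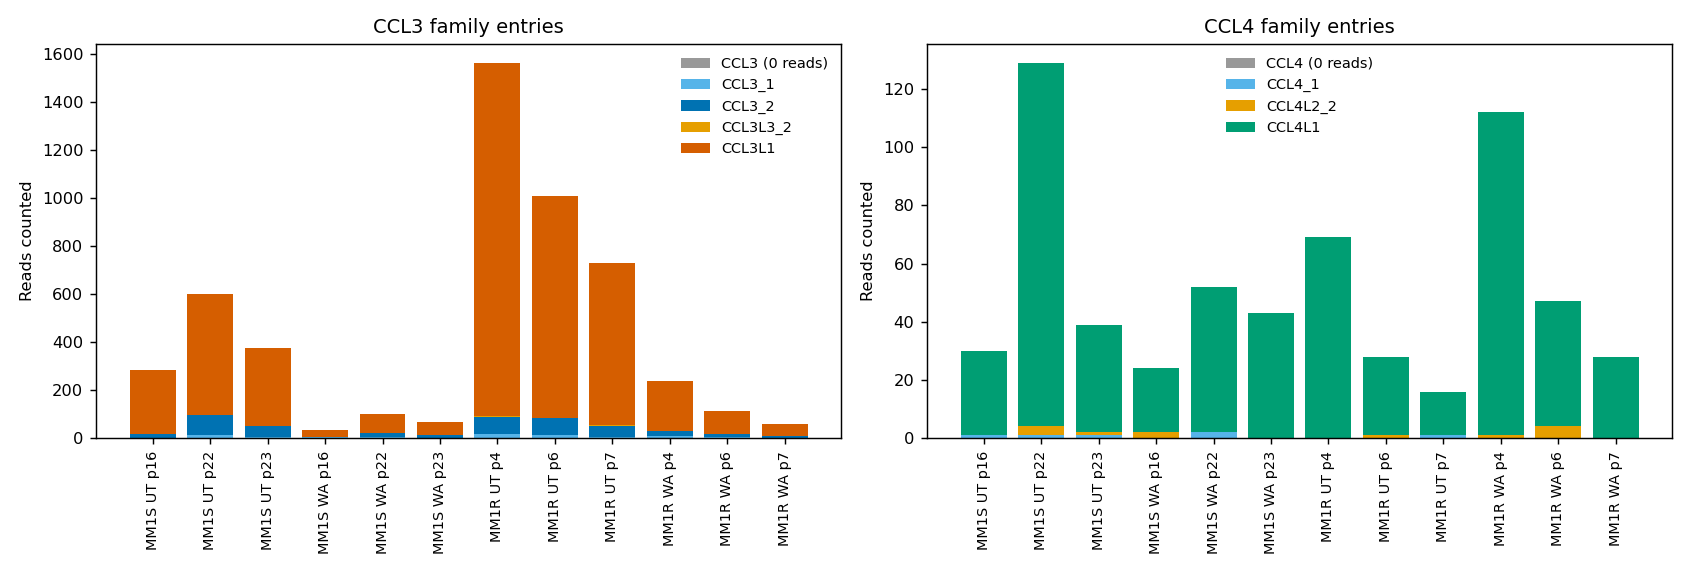
Reads counted for each entry of the CCL3 and CCL4 families in the 12 libraries, named by line, treatment and passage (p), as stacked bars with a different range in each panel. CCL3L1 makes up 90.63% of the CCL3 family and CCL4L1 97.08% of the CCL4 family, while the plain CCL3 and CCL4 entries hold 0 reads; the WA bars are low in the CCL3 panel and not in the CCL4 panel.

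The promoter of CCL3L3 is shown because its transcript shares most read-length windows with that of CCL3L1, for which no promoter was at hand, and the CCL3 promoter is shown for comparison. They come from RefSeq on GRCh38.p14, chr17:36090144-36090393 for the CCL3 start site farthest upstream of 3 and chr17:36196759-36197008 for CCL3L3, both on the minus strand, with TATAAA in capitals.
CCL3 promoter: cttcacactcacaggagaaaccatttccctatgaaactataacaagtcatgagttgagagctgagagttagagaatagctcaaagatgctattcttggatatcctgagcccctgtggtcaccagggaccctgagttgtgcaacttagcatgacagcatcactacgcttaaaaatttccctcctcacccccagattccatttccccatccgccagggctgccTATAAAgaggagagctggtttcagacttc
CCL3L3 promoter: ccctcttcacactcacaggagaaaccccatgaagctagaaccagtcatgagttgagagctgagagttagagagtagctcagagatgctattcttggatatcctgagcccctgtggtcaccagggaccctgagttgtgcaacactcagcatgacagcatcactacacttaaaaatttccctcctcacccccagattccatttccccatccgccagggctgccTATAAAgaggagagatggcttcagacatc
Both hold TATAAA at positions -29 to -24, and 96 of the last 100 bases before the start are the same without gaps. The longest identical run is 70 bases.

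CCR1, the receptor for CCL3 on osteoclast precursors, was the most abundant member and fell in both lines. Untreated MM1S held 8208, 7769 and 8764 reads at passages 16, 22 and 23, and with WA 4448, 5556 and 3306. Untreated MM1R held 9268, 8349 and 8045 reads at passages 4, 6 and 7, and with WA 5278, 4355 and 2340. The groups did not overlap, and the WA cultures spread more widely than the untreated ones. Levels went from 421 ± 17.6 to 239 ± 58.1 CPM in MM1S and from 470 ± 12.2 to 223 ± 72.2 CPM in MM1R (SD, n = 3). The log2 fold change was -1.08 ± 0.21 in MM1R (edgeR adjusted p = 0.0046), and it kept its call in all 12 fits that left out 1 library. In MM1S it was -0.81 ± 0.21 (edgeR adjusted p = 0.026). That call was lost, at edgeR adjusted p of 0.051 to 0.1, without any of the 3 untreated MM1S libraries or the WA libraries of passages 16 and 23, and it was 0.099 without both libraries of passage 16. The fits that left out libraries did not use passage as a block. With that block and all 12 libraries, CCR1 in MM1S was at -0.84 ± 0.17 (edgeR adjusted p with block = 0.0039). None of the 6 motifs searched (TATAAA; AP-1, TGANTCA; a heat shock element, GAANNTTC; CRE, TGACGTCA; ARE, TGACNNNGC; and NF-kB by name) was matched in the 250 bases before the CCR1 start on GRCh38.p14 (chr3:46208314-46208563, minus strand), which says only that these letters are not in this window.

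CXCR4 rose in both lines, against the direction of the other called members. Untreated MM1S held 775, 801 and 855 reads and WA cultures 1771, 1188 and 1214, at passages 16, 22 and 23. Untreated MM1R held 395, 506 and 541 reads and WA cultures 786, 1121 and 1031, at passages 4, 6 and 7. Within each line every WA culture was above every untreated one, and the highest of all was the MM1S WA culture of passage 16. The level rose from 41.3 ± 1.18 to 75.2 ± 18.0 CPM in MM1S and from 26.6 ± 5.58 to 55.9 ± 12.1 CPM in MM1R (SD, n = 3). The log2 fold change was 0.86 ± 0.20 in MM1S (1.82-fold, edgeR adjusted p = 0.013) and 1.07 ± 0.20 in MM1R (2.10-fold, edgeR adjusted p = 0.0033). The MM1S call was at edgeR adjusted p = 0.051 without the untreated library of passage 22 or the WA library of passage 16, and the log2 fold change was 0.63 (edgeR adjusted p = 0.1) without both libraries of passage 16. These fits had no passage block. With the block and all 12 libraries, CXCR4 in MM1S was at 0.84 ± 0.12 (edgeR adjusted p with block = 0.00045). In MM1R all 12 fits that left out 1 library kept the call. The ligand CXCL12 was near absent from the cells, with 0 to 6 reads per library.
The CXCR4 promoter of the start site farthest upstream of 3 (chr2:136118150-136118399, minus strand, GRCh38.p14) is shown as that of the called member that rose. Capitals mark TATAAA, read on both strands with 2 overlapping matches between -32 and -25. They also mark the letters GAANNTTC, searched for as a heat shock element, at -8 to -1.
CXCR4 promoter: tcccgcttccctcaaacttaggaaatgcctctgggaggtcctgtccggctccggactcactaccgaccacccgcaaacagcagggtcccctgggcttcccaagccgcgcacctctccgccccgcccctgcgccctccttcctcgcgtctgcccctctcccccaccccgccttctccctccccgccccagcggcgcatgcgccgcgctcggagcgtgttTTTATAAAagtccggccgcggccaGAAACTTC
The form GAANNTTC is found in 5.78% of the promoter windows. Start site 2 of CXCR4 held the ARE letters at -157 to -149 and at -36 to -28, and 10.9% of the promoter windows hold them. A match is a description of the letters and was not linked to any binding here.

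HGF did not pass the test with WA in either line. It held 18, 10 and 12 reads in untreated MM1S and 19, 4 and 4 with WA, at passages 16, 22 and 23. In MM1R it held 18, 26 and 27 reads untreated and 50, 27 and 16 with WA, at passages 4, 6 and 7. The groups overlapped, and 1 pair in each line had a change of the opposite sign to the fit. The log2 fold change was -0.48 in MM1S, with a 95% interval from -1.75 to 0.79 (edgeR adjusted p = 0.69), and 0.40 in MM1R, from -0.67 to 1.47 (edgeR adjusted p = 0.67). It turned to -0.07 in MM1R without the WA library of passage 4. Its receptor MET was read in every library, at 4.34 to 5.99 CPM in the group means, and was called in no comparison.

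**Figure D3:**
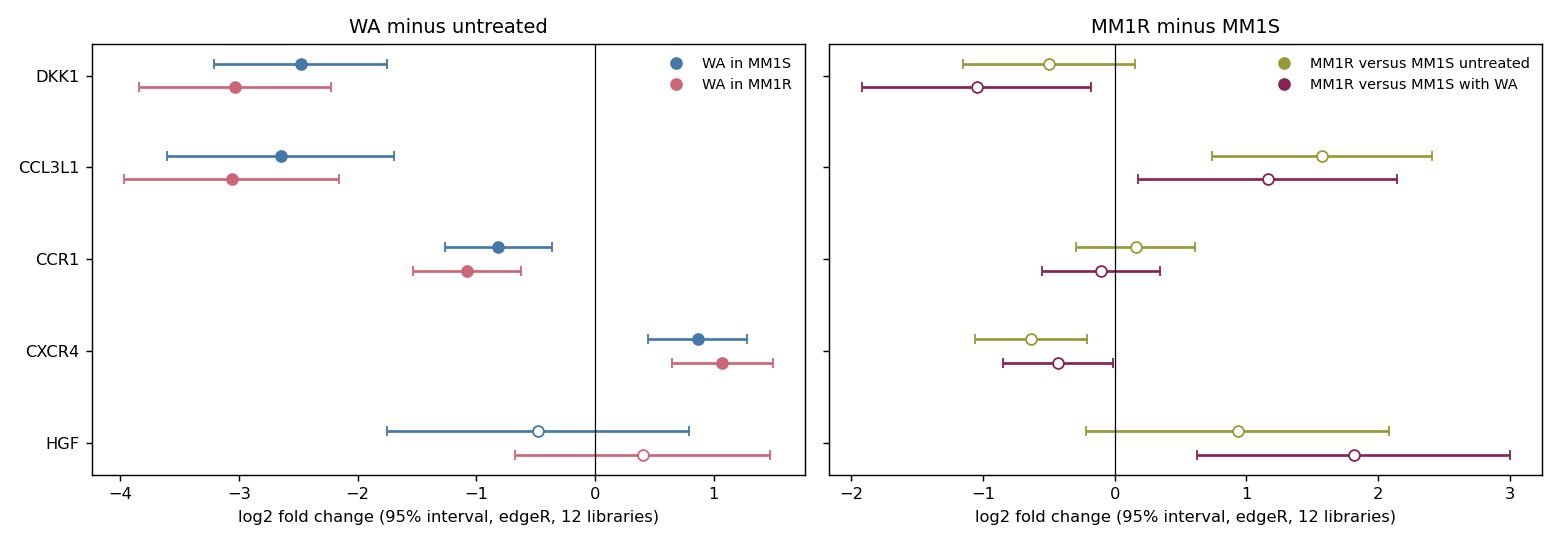
Log2 fold change of each tested member with its 95% interval from the edgeR fit of 12 libraries, for WA minus untreated in each line (left) and MM1R minus MM1S under each treatment (right). Filled circles are called and open circles are not; 4 of 5 members are called for WA in each line and 0 of 5 between the lines.

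The members below the filter carried too few reads for a comparison. FRZB had 8 and 5 reads in the untreated and WA cultures of MM1S passage 16, 1 and 2 at passage 22, and 0 at passage 23. In all 6 MM1R libraries FRZB had 0 reads, which allows up to 3 reads per library by counting error alone. FRZB reads thus came mostly from passage 16, the libraries that stood apart. TNFRSF11B had 0 or 1 read in 11 libraries and 4 in the MM1R WA culture of passage 4. With RANKL at 0 reads and osteoprotegerin at or under 4 reads, no ratio between them was formed. RANK itself, the receptor TNFRSF11A, was read in every library, at 0.785 ± 0.194 CPM in untreated MM1S and 1.49 ± 0.31 in untreated MM1R (SD, n = 3), and was called in no comparison.

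The comparison between the lines sets the GC-resistant against the GC-sensitive cells. A gene was called here at an edgeR adjusted p under 0.01 with a log2 fold change over 1 in size, the limits the study set. None of the 5 tested members was called between untreated MM1R and MM1S, where 2.97% of all genes were (1.48% higher and 1.49% lower in MM1R), and none between the lines with WA, where 3.04% were (1.63% higher and 1.41% lower). CCL3L1 was nearest: every untreated MM1R culture lay above every untreated MM1S culture, with a log2 difference of 1.57 ± 0.39, or 2.98-fold, and an edgeR adjusted p of 0.019. It passed the limit when only the 6 untreated libraries were fitted (edgeR adjusted p = 0.0074), and at 0.0091 and 0.009 without the WA library of MM1S passage 16 or of MM1R passage 4. With its copies summed the difference was 1.48 (edgeR adjusted p = 0.029). With WA the CCL3L1 difference was 1.16 ± 0.46 (edgeR adjusted p = 0.11) and the groups overlapped.

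CXCR4 was lower in MM1R without passing the limits, by 0.64 on the log2 scale untreated (-0.64 ± 0.20, edgeR adjusted p = 0.052) and -0.43 ± 0.19 with WA (edgeR adjusted p = 0.17). The 3 MM1R cultures lay below the 3 MM1S cultures under both treatments. The share of all genes whose groups separate in this way, here and for the other members, was not counted. DKK1 differed by -0.50 ± 0.31 untreated (edgeR adjusted p = 0.33), with overlap, and by -1.05 ± 0.41 with WA (edgeR adjusted p = 0.11), without overlap. CCR1 differed by 0.16 untreated, with a 95% interval from -0.29 to 0.61, and by -0.10 with WA, from -0.55 to 0.35 (edgeR adjusted p of 0.68 and 0.79). HGF was at 0.94 ± 0.54 untreated (edgeR adjusted p = 0.29) and 1.81 ± 0.55 with WA (edgeR adjusted p = 0.047). The HGF difference with WA was 2.96 (edgeR adjusted p = 0.0032) without the MM1S WA library of passage 16 and 2.96 (edgeR adjusted p = 0.002) without both libraries of that passage.

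No member was shown to respond differently to WA in the lines. The interaction called 0 of 14085 genes (0%) in edgeR, with 97 at an unadjusted p under 0.05 and none of them a member, and DESeq2 called 1 gene, also no member. The difference in log2 fold change, MM1R minus MM1S, was -0.55 for DKK1 with a 95% interval from -1.64 to 0.53. It was -0.41 for CCL3L1, from -1.70 to 0.88. It was -0.26 for CCR1, from -0.90 to 0.38, and 0.21 for CXCR4, from -0.39 to 0.80. For HGF it was 0.88, from -0.78 to 2.54. The intervals leave room for differences of more than 1 log2 unit in DKK1, CCL3L1 and HGF.

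The pathways around the members were read from 8 lists of genes, which include members themselves. Among 37 tested receptors, transducers and targets of Wnt signalling, 0 rose and 6 fell with WA in MM1R and 0 rose and 5 fell in MM1S, with medians of -0.17 and -0.16 on the log2 scale. The genes that fell were 16.2% of the list in MM1R, against 6.46% of all genes, and 13.5% in MM1S, against 4.23%. With passage as a block 11 fell in MM1R, and 11 fell and 1 rose in MM1S, or 29.7% lower in each line against 14.4% and 11.7% of all genes. CCND1, the cell cycle gene cyclin D1, fell by 1.40 in MM1R (edgeR adjusted p = 0.00068) and by 0.79 in MM1S (edgeR adjusted p = 0.021). FZD8, a Wnt receptor, fell by 1.01 in MM1R (edgeR adjusted p = 0.045) and by 1.38 in MM1S (edgeR adjusted p = 0.017). The transducer DVL1 fell by 0.48 and 0.50, DVL2 fell by 0.45 in both, and the feedback gene AXIN2 fell by 0.63 in MM1R. Calls in this list were thin: 2 to 6 genes fell in MM1R and 1 to 6 in MM1S when 1 library was left out, and 1 fell in MM1S without both libraries of passage 16. LRP5, the co-receptor that DKK1 binds, was not called, but it was lower with WA in every pair of 1 passage. Its mean went from 49.4 to 39.6 CPM in MM1R (log2 fold change -0.32, 95% interval from -0.55 to -0.09, edgeR adjusted p = 0.065). In MM1S it went from 46.1 to 40.1 CPM (-0.20, from -0.43 to 0.03, edgeR adjusted p = 0.28). Among the Wnt antagonists 3 of 18 had enough reads, and DKK1 was the one called with WA. KREMEN1, a partner of DKK1 at the membrane, was at -1.12 ± 0.31 in untreated MM1R against MM1S (edgeR adjusted p = 0.032), short of the limit in edgeR. At the same limits DESeq2 called 1 of the 3 tested Wnt antagonists lower in untreated MM1R. These 3 include KREMEN1, and the one called was not DKK1.

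Chemokine genes moved in both directions. Of 6 tested ligands, CCL3L1 and CXCL10 fell in both lines. These were 33.3% of the list, against 6.46% of all genes lower in MM1R and 4.23% in MM1S. CXCL10, a T cell attractant, went from a mean of 7.03 ± 5.49 to 1.97 ± 1.00 CPM in MM1S (SD, n = 3; log2 fold change -1.83, edgeR adjusted p = 0.022) and from 14.6 to 4.30 CPM in MM1R (-1.76, edgeR adjusted p = 0.015), and kept its call in 9 and 11 of the 12 fits that left out 1 library. Untreated MM1S held 256, 57 and 98 CXCL10 reads at passages 16, 22 and 23, and without the untreated library of passage 16 the MM1S value was -0.99 (edgeR adjusted p = 0.077). Of 13 tested receptors, 2 rose and 3 fell in each line, or 15.4% higher and 23.1% lower. Over all genes these shares were 7.55% and 6.46% in MM1R and 6.25% and 4.23% in MM1S. The called receptors include the members CXCR4, which rose, and CCR1, which fell. CXCR1, the other that rose, passed the filter on low counts only through its WA libraries. Where all libraries had to hold 10 reads, 1 of 9 receptors rose and 3 fell in each line. Of all 11805 genes tested in that fit, 1096 rose and 787 fell in MM1R. With passage as a block 2 rose and 5 fell in each line, or 15.4% higher and 38.5% lower. Over all genes 14.7% were then higher and 14.4% lower in MM1R, and 12.5% and 11.7% in MM1S. Without both MM1S libraries of passage 16, 1 rose and 2 fell in MM1S. CCR2, the receptor of monocyte chemoattractants, fell by 2.35 in MM1S (edgeR adjusted p = 0.0013) and fell by 2.23 in MM1R (edgeR adjusted p = 0.0012), and XCR1 fell by 0.84 and 1.05. CXCR1, a receptor of interleukin 8, rose from 1 to 4 reads per untreated MM1S library to 28 to 52 with WA, and from 0 or 1 to 10 to 22 reads in MM1R (edgeR adjusted p = 0.00032 and 0.001). Between the lines, CX3CR1, the fractalkine receptor, held 693, 918 and 1054 reads in untreated MM1R at passages 4, 6 and 7, and 165, 12 and 23 in untreated MM1S at passages 16, 22 and 23, where passage 16 carried most of the mean of 3.44 ± 4.43 CPM (SD, n = 3). The log2 difference was 3.84 untreated (edgeR adjusted p = 0.0023) and 4.36 with WA (edgeR adjusted p = 0.0019). Without both MM1S libraries of passage 16, CX3CR1 differed by 5.79 and 5.69 (edgeR adjusted p of 4.5e-08 and 9.7e-08). The untreated CX3CR1 call was lost without the MM1S library of passage 23 (edgeR adjusted p = 0.013), and the call with WA without the MM1S WA library of passage 22 or 23 (edgeR adjusted p = 0.012). CCR10 was higher in untreated MM1R by 1.07 (edgeR adjusted p = 0.0065), a call kept in 5 of 12 fits that left out 1 library.

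On the RANK axis, TRAF6, the adaptor that carries the RANK signal, rose by 1.20 in MM1S (edgeR adjusted p = 7.1e-05) and 1.39 in MM1R (edgeR adjusted p = 2.3e-05). It went from 32.4 to 74.2 CPM and from 26.8 to 70.3 CPM in the group means. Of the other 9 tested genes of the list, the kinase gene SRC fell by 0.69 in MM1R (edgeR adjusted p = 0.025). That call was kept in 8 of 12 fits that left out 1 library. None of these 9 genes was called in MM1S. With TRAF6, 20% of the 10 tested genes were called in MM1R and 10% in MM1S, against 14.0% and 10.5% of all genes. With passage as a block 3 of the 10 rose and 1 fell in MM1R, and 2 rose and 1 fell in MM1S. These were 40% and 30%, against 29.1% and 24.1% of all genes. NFATC1, the osteoclast transcription factor, was higher in MM1R by 2.02 untreated (edgeR adjusted p = 0.0041) and 1.81 with WA (edgeR adjusted p = 0.008), and these calls held in 7 and 3 of 12 fits that left out 1 library.

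Of 14 tested genes around HGF and MET, 1 was called with WA in MM1R and 0 in MM1S (edgeR adjusted p under 0.05). That is 7.14% and 0% of the list, against 14.0% and 10.5% of all genes. With passage as a block 1 rose in MM1S, and 1 rose and 1 fell in MM1R. These were 7.14% in MM1S and 14.3% in MM1R, against 24.1% and 29.1% of all genes. PLAUR, the urokinase receptor, rose by 1.44 in MM1R (edgeR adjusted p = 0.014) and kept its call in 9 of the 12 fits that left out 1 library. Between the lines, F12, coagulation factor XII, was higher in untreated MM1R by 1.41 (edgeR adjusted p = 0.0013), and SPINT2, an inhibitor of the proteases that activate HGF, was lower, at 29.7 against 60.4 CPM (log2 difference -1.03, edgeR adjusted p = 0.0001). With WA the differences were 1.18 for F12 (edgeR adjusted p = 0.0049) and -1.03 for SPINT2 (edgeR adjusted p = 0.00011). When 1 library was left out, F12 kept its call in 10 of 12 fits untreated and 7 with WA, and SPINT2 in 10 and 11.

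Among 24 tested cytokines and other bone-active genes, 6 rose and 1 fell with WA in each line, with medians of 0.14 in MM1R and 0.18 in MM1S. The 6 were 25% of the list, against 7.55% of all genes higher in MM1R and 6.25% in MM1S. With passage as a block 8 rose and 3 fell in MM1R and 9 rose and 5 fell in MM1S, or 33.3% and 37.5% higher, against 14.7% and 12.5% of all genes. VEGFA rose by 1.18 in MM1R (edgeR adjusted p = 0.011) and 0.97 in MM1S (edgeR adjusted p = 0.036), and RUNX3 rose by 1.05 (edgeR adjusted p = 0.0084) and 1.12 (edgeR adjusted p = 0.0073). SEMA4D, a semaphorin that restrains osteoblasts, rose by 0.81 in MM1R (edgeR adjusted p = 0.0014) and 0.89 in MM1S (edgeR adjusted p = 0.00084). BMP4, a bone morphogenetic protein, rose by 1.84 in MM1S (edgeR adjusted p = 0.018) from 7 or 8 reads to 11 to 36 reads per library. GFI1, a transcriptional repressor, fell by 0.85 in MM1R (edgeR adjusted p = 0.021) and 0.87 in MM1S (edgeR adjusted p = 0.023). Without both MM1S libraries of passage 16, 3 rose and 1 fell in MM1S, and VEGFA, RUNX3 and BMP4 were at edgeR adjusted p of 0.087, 0.056 and 0.12. When 1 library was left out, 4 to 6 genes rose and 0 to 1 fell in MM1R, and 4 to 7 rose and 0 to 1 fell in MM1S. HPSE, the heparan sulphate-cleaving heparanase, was lower in MM1R by 1.16 on the log2 scale untreated (-1.16, edgeR adjusted p = 0.0015).

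Homing and adhesion genes were called with WA at 9.38% in each line, a share near or below that of all genes (14.0% in MM1R and 10.5% in MM1S). Of 32 tested, CXCR4 and HMMR, a hyaluronan receptor, rose and RHOH, a small GTPase gene of blood cells, fell in both lines, with medians of -0.01 in MM1R and 0.02 in MM1S. RHOH fell by 0.77 in MM1R (edgeR adjusted p = 0.00072) and 0.87 in MM1S (edgeR adjusted p = 0.00033), and HMMR rose by 0.50 and 0.53, with calls in 8 and 6 of 12 fits that left out 1 library. With passage as a block 5 rose and 3 fell in MM1R and 3 rose and 3 fell in MM1S, or 25% and 18.8% against 29.1% and 24.1% of all genes, and without both MM1S libraries of passage 16, 0 rose and 1 fell in MM1S. Between the lines, ITGA4, the integrin alpha-4 chain that binds VCAM1 on stroma, was lower in untreated MM1R, at 112 against 236 CPM (log2 difference -1.08, edgeR adjusted p = 0.00067). ALCAM, an adhesion molecule, was lower by 1.09 on the same scale (-1.09, edgeR adjusted p = 0.0025), a call kept in 8 of 12 fits that left out 1 library. ICAM1 was higher in MM1R with WA, by 3.02 (edgeR adjusted p = 0.0055), and kept that call in 7 of 12 fits. The MM1S WA cultures held 427, 78 and 114 ICAM1 reads at passages 16, 22 and 23, and the difference was 4.12 (edgeR adjusted p = 2.9e-08) without both libraries of passage 16.

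**Figure D4:**
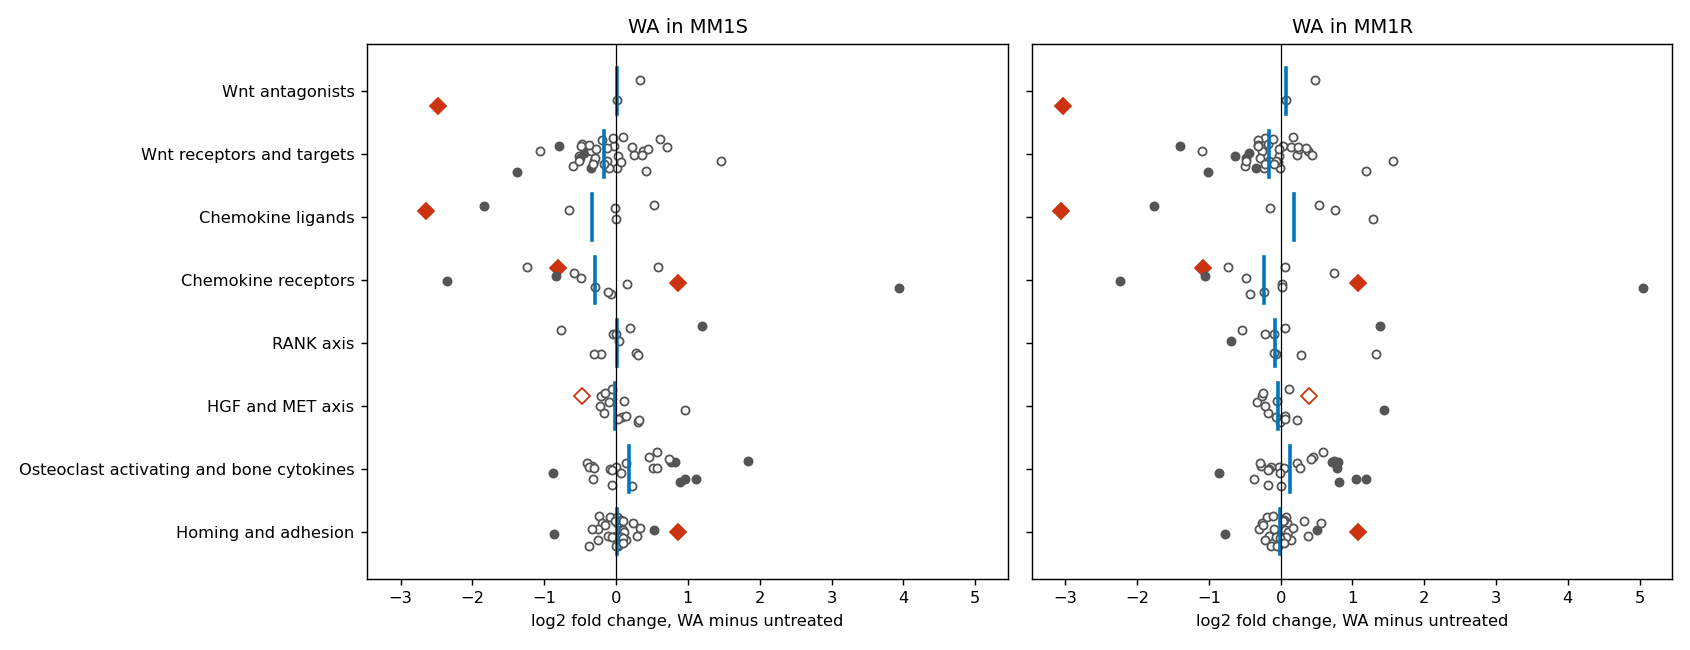
Log2 fold change with WA of every tested gene of the 8 pathway lists in MM1S and MM1R, 1 point per gene. Red diamonds are members, grey circles other genes, filled symbols are called at an edgeR adjusted p under 0.05 and blue bars are list medians; DKK1 and CCL3L1 lie at the low end of their lists, and the filled circles beyond 3 log2 units are CXCR1.

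For each tested member, the genes with the most similar levels over the 12 libraries were looked up. Pearson's r of log2 CPM, which is given as a description because libraries of 1 group share their treatment, was 0.973 between DKK1 and GPATCH11, 0.967 between CCL3L1 and CDK9, the kinase of transcription elongation, and 0.975 between CCR1 and the transcription factor gene KLF13. CDK9 had means of 79.8 and 47.7 CPM in untreated and WA MM1S and 108 and 59.4 CPM in MM1R. KLF13 had means of 68.8 and 39.7 CPM in MM1S and 84.8 and 41.0 CPM in MM1R. For CXCR4 the nearest was TUBA1A, a tubulin gene, with r of 0.971 and means of 29.5 and 61.4 CPM in MM1S and 16.2 and 37.7 CPM in MM1R. For HGF it was FBXO36, with r of 0.943 at means under 1 CPM in every group. SLC25A38 and FAM161A came next for DKK1, SOX12 and ASPHD2 for CCL3L1, IRF2 and LSM14B for CCR1, RTN3 and CALHM2 for CXCR4, and RTL9 and ATP13A4 for HGF.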

How the data were processed

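RNA from 12 cultures (4 groups, n = 3) was sequenced by the authors on a BGISEQ-500 and aligned to hg19; the submitters' notes name FastQC 0.11.5, STAR 2.7.3a and DESeq2. The authors deposited raw counts, whole reads per entry with no normalization, for 43735 entries, of which 4743 carry a number after the symbol. The annotation and strand setting are not given in the sources used here. A second deposited table, normalized by size factors, was not used. Groups and passages came from the labels.

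Members and lists were chosen with earlier results of these data known. Genes passing edgeR's filterByExpr (minimum count 10; 14085) were TMM-scaled and fitted over 12 libraries with the quasi-likelihood test (R 4.3.3, edgeR 4.0.16) and Benjamini-Hochberg adjustment. DESeq2 1.42.0, DESeq2 size factors, other filters, other thresholds, the 6 libraries compared alone, passage as a block, summed copies and leaving out libraries were alternatives. The code was tested on simulated data. Changes within pairs used log2 of CPM plus 0.5. Limits on counts of 0 (3 reads) cover counting error only. Coordinates are from GRCh37 annotation, and promoters, found for 7 of 10 members, from RefSeq on GRCh38.p14. Named genes are the members, their copies and direct partners, up to 4 called genes of largest change per list and comparison, and the 3 genes most correlated with each tested member. 1 direct partner is not reported here. Passage numbers pair the cultures: the labels give a culture's passage, and deviations from group means correlated at 0.20 to 0.80 in the 6 same-passage pairs, although different-passage pairs ranged from -0.77 to 0.52, and passages 22 and 23 of MM1S correlated across numbers at 0.41 and 0.52. Within groups, counts varied 8.1 to 44.3 times more than sampling allows, and each library was counted as 1 replicate.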

Additional observations from a re-analysis of the deposited data

How the results depend on the processing

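Of 485 values of single members under an alternative, 462 kept direction and side of the threshold, 9 lost the call, 10 gained one and 4 changed sign. The sign changes were HGF with WA in MM1R (-0.067 without the MM1R WA library of passage 4), CCR1 between the lines with WA (0.08 without the MM1S WA library of passage 22 and 0.163 without the MM1R WA library of passage 7) and the CCR1 interaction (0.008 without that last library); none of these was called. Over the fits that left out 1 library these 3 values ranged from -0.067 to 0.705, from -0.305 to 0.163 and from -0.464 to 0.008. With passage as a replicate block 4094 genes were called for WA in MM1R and 3399 in MM1S, and the block changed no call of a member. Without both MM1S libraries of passage 16, a setting chosen after seeing the data, 690 genes and 2 members were called for WA in MM1S, 755 genes between untreated lines, and 817 genes and 1 member (HGF) between lines with WA. Between untreated lines 811 genes were called with no filter, 234 where all libraries had to hold 10 reads, and 1681 at an adjusted p of 0.05 with no fold limit; with WA these were 819, 222 and 1690. Members called between untreated lines were 1 with no filter, in the 6 libraries alone and at the looser limits, and with WA 2 with no filter and 1 at the looser limits. The interaction called 1 gene in DESeq2 and 11 with no filter. Leaving out 1 library in turn gave 950 to 2396 genes and 4 to 4 members for WA in MM1R, 726 to 1621 genes and 2 to 4 members for WA in MM1S, 268 to 537 genes and 0 to 1 members between untreated lines, 264 to 649 genes and 0 to 1 members between lines with WA, and 0 to 0 for the interaction. The cause of these changes was not tested. The lines share no passage, so no block could be fitted between them.

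Depth limits HGF, FRZB and TNFRSF11B. Transcript sequence shared with CCL3L3 limits CCL3L1, whose entry cannot be read as the level of that gene alone. For CCL3 and CCL4, reads stood in numbered entries and not in the plain ones, and the cause was not tested.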
